A study of Mus musculus with 3 samples.

Results

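The cells described here are cycling *Pdgfra*-positive progenitors of mouse inguinal white adipose tissue, 270 cells of 31905 in all and of 21275 *Pdgfra*-positive cells. They were selected on unique molecular identifier (UMI) counts, each UMI standing for 1 captured RNA molecule: at least 1 UMI of *Pdgfra*, at least 2 of *Top2a* and at least 1 of *Mki67*, with none of *Epcam* or *Pecam1*, among barcodes with at least 2000 UMIs and at most 10% of them mitochondrial. The comparison cells are the 20281 *Pdgfra*-positive cells of the same filters with no UMI of *Top2a* and none of *Mki67*. Because these 5 genes chose the cells, their levels are a description of the choice, and genes that go with them in the same cells describe the same choice.

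The stromal vascular fraction (SVF) of inguinal fat was taken at 4 weeks of age from wild-type mice, from *Mgp*-KO mice, which lack matrix Gla protein (*Mgp*) in every tissue, and from *Pd*-KO mice, in which a floxed *Mgp* gene is deleted by a *Pdgfra*-Cre transgene in *Pdgfra*-expressing cells. Dead (DAPI-positive) cells and CD45-positive immune cells were removed by sorting, and the cells of several mice were pooled into 1 library per genotype. The *Pd*-KO cells are set here against wild-type cells, since a library of floxed mice without Cre was not used here. Each genotype thus has a single library and no value could be tested across animals, and the 95% intervals below cover counting error only.

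The wild-type library held 184102026 UMIs, the *Mgp*-KO library 93212243 and the *Pd*-KO library 83942865. After filtering, 10511, 12575 and 8819 cells remained, of which 6591, 8670 and 6014 were *Pdgfra*-positive without *Epcam* or *Pecam1*. Any pair of libraries shared between 35 and 40 cell barcodes, and none of these was a cycling cell in both. The wild-type count file names Cell Ranger 4 in its header and both knockout files name version 7.1.0, while the study's methods name version 6.1.1 with default settings. Whether reads of introns were counted is not stated in the sources used here, and the default for this differs between versions. Library version and genotype cannot be told apart, which bears on every value set across genotypes.

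Adipose progenitors are fibroblast-like cells that carry the PDGF receptor alpha, make collagen matrix and give rise to new adipocytes. Most of them rest outside the cell cycle. A cell that divides first copies its DNA, with the Mcm helicase, the sliding clamp *Pcna* and new histones, and then builds a spindle and separates its chromosomes under cyclin B with *Cdk1*, the Aurora kinases and the anaphase-promoting complex. *Top2a* untangles the copied chromosomes and *Mki67* coats them, so both mark cells in or near division. In inguinal fat, *Dpp4*- and *Pi16*-positive interstitial progenitors, *Icam1*-positive committed preadipocytes and *F3*-positive adipogenesis regulatory cells (Aregs) have been described as separate groups.

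The markers that did not enter the selection were high in the cycling cells of all libraries. *Stmn1*, which destabilizes microtubules, was at 824 CPM (UMIs per 1000000 of the class) in the wild-type cycling cells, 1012 in the *Mgp*-KO and 1143 in the *Pd*-KO cells, against 19.7, 15.6 and 9.50 CPM in the comparison cells. *Pclaf*, a PCNA-binding factor of DNA replication, was at 589, 556 and 405 CPM against 3.16, 1.16 and 0.426. *Birc5* (survivin), a part of the chromosomal passenger complex, was at 367, 354 and 420 CPM against 3.11, 1.71 and 1.46. All 3 genes were thus far above the comparison cells in every library. Values given in threes below follow the same order of wild-type, then *Mgp*-KO, then *Pd*-KO. When each cell was thinned at random to 4000 UMIs, 84.4%, 92.6% and 95% of cycling cells kept a *Stmn1* UMI, against 5.90%, 4.79% and 3.51% of comparison cells. In this and later thinned shares for a single gene, cells kept the class they had before thinning, with 179, 68 and 20 cycling cells. The progenitor part of the name was read from 10 stromal genes, whose summed level was 52862, 42893 and 69825 CPM in cycling cells and 81843, 71380 and 100887 in comparison cells. In endothelial cells without *Pdgfra* it was 7873, 5370 and 5893 CPM, and in the free RNA read from barcodes with 10 to 100 UMIs it was 27246, 50828 and 91919 CPM. Cycling cells thus held this stromal RNA above the endothelial level in every library. Among these genes *Dcn* (decorin), a proteoglycan of fibroblasts, had a UMI in every thinned cycling cell, in nearly all comparison cells and in 84.4%, 26.6% and 24.2% of thinned endothelial cells. *Pdgfra* itself was counted at a median of 5, 3 and 4 UMIs per cycling cell, and 26, 15 and 3 of the cells had exactly 1 *Pdgfra* UMI. For comparison, 23.3% of wild-type endothelial cells (at least 2 UMIs of *Pecam1* and 1 of *Cdh5*, median 7735.5 UMIs per cell), 20.2% of *Mgp*-KO (4099) and 17.2% of *Pd*-KO endothelial cells (4620) held a *Pdgfra* UMI, so a single one can be free RNA.

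Cells near the threshold differed in degree. The 16 wild-type cells with exactly 2 *Top2a* UMIs were inside and had 336 CPM of *Stmn1*, 315 of *Pclaf* and 109 of *Birc5*. The 19 wild-type cells with 1 *Top2a* UMI and at least 1 of *Mki67* were outside and had 481, 174 and 171 CPM. The 217 wild-type cells with 1 *Top2a* UMI and none of *Mki67* had 46.7, 35.0 and 8.17 CPM. In *Mgp*-KO 10 cells with 1 *Top2a* UMI and at least 1 of *Mki67* stood outside beside 68 cycling cells, with 632, 295 and 320 CPM, and in *Pd*-KO 13 such cells stood outside beside 20, with 591, 140 and 254 CPM. A further 64 *Pd*-KO cells with *Mki67* but no *Top2a* UMI had 398, 48.5 and 107 CPM. Between both classes lay 445 cells in wild-type, 137 in *Mgp*-KO and 142 in *Pd*-KO, which entered neither. The cut therefore leaves out some cells with the same markers at similar levels, and more of them for each cycling cell in *Pd*-KO than in wild-type.

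Cycling cells were most frequent in the wild-type library. They were 182 of 6591 wild-type *Pdgfra*-positive cells, or 2.76% (exact binomial, Clopper-Pearson, interval 2.38 to 3.19), 68 of 8670 *Mgp*-KO cells, or 0.784% (0.610 to 0.993), and 20 of 6014 *Pd*-KO cells, or 0.333% (0.203 to 0.513). The *Mgp*-KO share was 3.52-fold lower than the wild-type share, a log2 ratio of -1.82 (-2.24 to -1.41), and the *Pd*-KO share 8.30-fold lower, a log2 ratio of -3.05 (-3.80 to -2.38). None of the 3 intervals overlapped. The sizes rest on the limits. With at least 1 UMI of each gene the shares were 3.05%, 0.8997% (0.712 to 1.12) and 0.549% (0.378 to 0.770), so *Pd*-KO was 5.56-fold below wild-type and the intervals of both knockouts overlapped. With any UMI of either gene they were 9.51%, 2.36% (2.05 to 2.71) and 2.69% (2.30 to 3.13), which kept both knockouts below wild-type but turned their order. Fewer cycling cells and a lower recovery of such cells in a library cannot be told apart.

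Depth differed between the libraries and enters the selection, which counts UMIs. Median UMIs were 23477 in wild-type cycling cells against 13909 in their comparison cells, 13977 against 6734 in *Mgp*-KO and 15010 against 9294 in *Pd*-KO. The wild-type share went from 0.783% of cells with 8000 to 16000 UMIs (25 of 3194) to 4.46% of those with 16000 to 32000 (105 of 2353) and 28% of those above (42 of 150). In the same middle ranges the *Mgp*-KO shares were 1.38% (40 of 2890) and 10.2% (22 of 216), above the wild-type shares, while the *Pd*-KO shares were 0.317% (11 of 3469) and 2.23% (9 of 404), below them. Within 4000 to 8000 UMIs the shares were 1.03% (7 of 682), 0.134% (6 of 4479) and 0 of 1754. The order of the wild-type and *Mgp*-KO libraries therefore depended on the range of UMIs per cell.

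Thinning every cell to 4000 UMIs and applying the selection again left 52 of 4372 wild-type cells, or 1.19% (0.890 to 1.56). It left 24 of 6060 *Mgp*-KO cells, or 0.396% (0.254 to 0.589), and 6 of 4355 *Pd*-KO cells, or 0.138% (0.0506 to 0.300). At this equal depth the shares kept the order of the unthinned shares, 3.0-fold and 8.63-fold below wild-type, with 212, 1085 and 385 shallower cells left out, and the *Mgp*-KO and *Pd*-KO intervals overlapped. Cycling cells held more UMIs than comparison cells in every library, so thinning kept a smaller part of each of them.

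**Figure D1:**
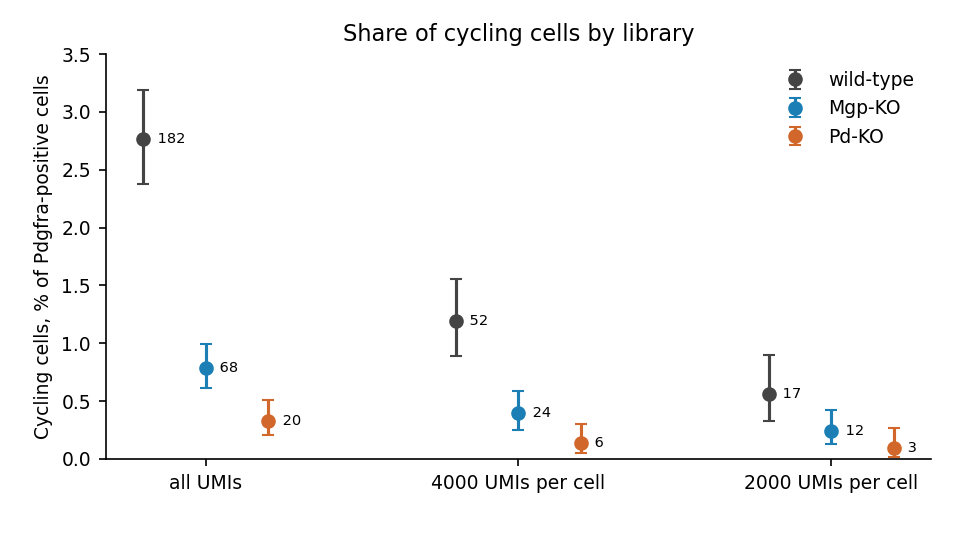
Cycling cells as a percentage of *Pdgfra*-positive cells in each library, coloured by genotype, with all UMIs and after thinning each cell to 4000 or 2000 UMIs; bars are exact 95% binomial intervals and the numbers beside the points count cycling cells. The wild-type share is the highest at each depth (2.76%, 1.19% and 0.562%) and the *Pd*-KO share the lowest (0.333%, 0.138% and 0.0921%), with overlapping wild-type and *Mgp*-KO intervals at 2000 UMIs.

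Across cells of any type, the *Top2a* and *Mki67* limits were passed by 357 cells in wild-type, 128 in *Mgp*-KO and 83 in *Pd*-KO, or 3.4%, 1.02% and 0.941% of all cells. Of these, 68.3%, 58.6% and 36.1% held a *Pdgfra* UMI. The *Pd*-KO share of cycling cells of any type was 3.61-fold below wild-type, whereas that among *Pdgfra*-positive cells was 8.30-fold below. Among cycling cells with *Pdgfra*, 62 of 244, 7 of 75 and 10 of 30 were left out for a UMI of *Epcam* or *Pecam1*. Sex was read from *Xist* and Y-linked UMIs, and female cells were 34.3%, 60.2% and 32.5% of the *Pdgfra*-positive cells. Male cells were 38.1%, 16.8% and 42.9%, and sex was not called in 27.6%, 23.0% and 24.6%. The cells without a call were cycling in 2.48%, 0.402% and 0.203% of cases. The cycling share was 3.09% in female and 2.67% in male wild-type cells, 0.843% and 1.10% in *Mgp*-KO, and 0.665% and 0.155% in *Pd*-KO cells. The log2 ratio of female over male was 0.21 (-0.29 to 0.72), -0.38 (-1.24 to 0.54) and 2.10 (0.41 to 4.17), and the last rests on 13 female and 4 male cells.

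Genes were compared by dividing summed UMIs by the total of the class, with 0.5 UMIs added for log2 ratios. Of 8761 genes with a mean of at least 10 CPM over both classes of the 3 libraries, 616 were at least 2-fold higher in cycling cells in every library (7.03%) and 68 at least 2-fold lower (0.776%). The median log2 ratio over all these genes was 0.07 in wild-type, 0.13 in *Mgp*-KO and 0.17 in *Pd*-KO cells, the level against which the lists below are read. In any size, 38.9% of the tested genes were higher and 22.3% lower in every library.

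The genes that stood furthest above the comparison cells were *Depdc1a*, *Hist1h1b* and *Esco2*. *Depdc1a*, a mitotic spindle protein, was at 75.5 CPM in wild-type, 111 in *Mgp*-KO and 105 in *Pd*-KO cycling cells against 0.140, 0.0485 and 0.0533 CPM, with log2 ratios of 9.02, 10.94 and 10.75. *Hist1h1b*, a linker histone made during DNA synthesis, was at 445, 646 and 755 CPM against 1.26, 0.566 and 0.799. *Esco2*, which acetylates cohesin while DNA is copied, was at 118, 127 and 169 CPM against 0.361, 0.0647 and 0.0355. All of them were seen in most cycling cells, with a *Depdc1a* UMI in 62.1%, 66.2% and 60% of them. The other genes named by the same rule were the histone genes *Hist1h2ap*, *Hist1h3c* and *Hist1h2ae*, the spindle and kinetochore genes *Hmmr*, *Knl1*, *Aspm*, *Nuf2* and *Ska1*, the mitotic kinase gene *Pbk*, the transcriptional repressor gene *Mxd3*, cyclin A2 (*Ccna2*) and *Pclaf*. Their wild-type log2 ratios lay between 7.54 for *Pclaf* and 8.27 for *Hist1h2ap*. Histone genes have near-identical copies, so their counts may be split between copies.

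The lists of cell cycle genes were higher almost as a whole. In the replication list, 36 of 38 tested genes were at least 2-fold higher in every library, beside 7.03% of all tested genes. The median log2 ratios were 3.99, 4.51 and 4.27. *Rrm2*, the limiting subunit of the enzyme that makes deoxynucleotides, was at 163, 150 and 127 CPM against 2.33, 1.02 and 0.817. *Pcna* was at 291, 265 and 191 CPM against 38.1, 31.4 and 25.9. Among the exceptions was *Hells*, a chromatin remodeler, at 107, 92.7 and 15.9 CPM against 4.97, 6.52 and 11.4. *Hells* was thus within 2-fold of the comparison cells only in *Pd*-KO, where 5 UMIs lay behind its value.

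In the mitosis list all 48 tested genes were at least 2-fold higher in every library, beside 7.03% of all tested genes. The median log2 ratios were 6.34, 7.0 and 7.33. *Cdk1*, the kinase that starts mitosis, was at 294, 341 and 306 CPM in cycling cells against 4.67, 3.11 and 2.63. *Ube2c*, the ubiquitin-conjugating enzyme of the anaphase-promoting complex, was at 446, 450 and 494 CPM against 2.48, 0.696 and 0.888, and *Cdc20*, its activator, at 168, 165 and 226 CPM against 2.11, 1.05 and 0.728. These genes stood far above the comparison cells in each library, and their levels in cycling cells were similar in the 3 libraries. Of 20 tested genes for histones and chromatin proteins, 19 were at least 2-fold higher in every library, beside 7.03% of all tested genes. They were led by *H2afz*, a histone H2A variant, at 2075, 2226 and 1991 CPM against 244, 219.9 and 187. The exception was *Cbx3*, a heterochromatin protein, which was higher by less than 2-fold, at 315, 245 and 239 CPM against 171, 127 and 136.

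The promoters of 4 of these genes are shown as examples that hold both elements described here, since many mitotic genes are known to carry both a CCAAT box bound by NF-Y and a cell cycle genes homology region (CHR). The 120 bases before the first RefSeq start are printed 5′ to 3′ on the strand of the gene, on the build GRCm38.p6, from RefSeq, with CHR matches (TTTGAA or TTCGAA) and CCAAT matches in capitals on either strand, so that TTCAAA and ATTGG mark matches on the other strand. They lie at chr3:159495313-159495432 on the plus strand for *Depdc1a*, at chr4:118437344-118437463 on the minus strand for *Cdc20*, at chr10:69352913-69353032 on the minus strand for *Cdk1* and at chr2:164769809-164769928 on the plus strand for *Ube2c*.
*Depdc1a*: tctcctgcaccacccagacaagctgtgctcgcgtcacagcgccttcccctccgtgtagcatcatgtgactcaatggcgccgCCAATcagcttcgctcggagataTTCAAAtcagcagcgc
*Cdc20*: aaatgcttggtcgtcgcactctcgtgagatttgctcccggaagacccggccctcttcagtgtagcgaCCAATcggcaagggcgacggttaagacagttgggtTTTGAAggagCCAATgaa
*Cdk1*: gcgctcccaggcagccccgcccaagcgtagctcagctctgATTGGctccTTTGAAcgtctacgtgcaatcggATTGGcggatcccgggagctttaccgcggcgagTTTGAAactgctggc
*Ube2c*: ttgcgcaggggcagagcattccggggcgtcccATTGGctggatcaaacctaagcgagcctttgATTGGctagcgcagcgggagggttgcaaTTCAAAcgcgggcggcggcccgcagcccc

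These 4 were chosen after their sequences were seen. In the same 120 bases *Ccnb1* and *Plk1* held CCAAT but no CHR match, and *Birc5*, *Knl1* and *Nuf2* held neither. Over 250 bases before the start, both elements were found in 35.7% of the mitosis genes (15 of 42 with a promoter in the table, of 49 listed). Among the 616 genes higher in every library, 499 had a promoter in the table and 15.6% held both, against 1.82% of 55 matched genes that were lower, 4.77% of 7027 matched tested genes and 6.21% of all 27025 promoters. A CHR match, with or without CCAAT, was found in 38.1% of mitosis genes, 22.8% of the higher genes, 12.04% of the tested genes and 17.4% of all promoters. For a CCAAT match these shares were 80.95%, 54.3%, 36.9% and 34.5%. E2F matches were spelled TTCCCGC or TTGGCGC and searched on both strands. They were found in 9.52% of mitosis genes, 22.2% of the higher genes, 11.2% of the tested genes and 5.71% of all promoters. A match is a run of letters and not a shown binding site.

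The cycling cells held RNA of both the replicating and the dividing part of the cycle. With at least 3 UMIs over 5 genes of early DNA synthesis (*Mcm3*, *Mcm5*, *Mcm6*, *Cdc6* and *Ccne2*) or over 5 genes of mitosis (*Ccnb1*, *Cdc20*, *Plk1*, *Cenpa* and *Aurka*), 57 of 182 wild-type cells had the early set only, 57 the late set only, 61 both and 7 neither. The *Mgp*-KO cells split into 21, 25, 21 and 1, and the *Pd*-KO cells into 2, 9, 8 and 1. The early set alone was therefore seen in 31.3% (24.7 to 38.6), 30.9% (20.2 to 43.3) and 10.0% (1.23 to 31.7), with overlapping intervals. Of the comparison cells, 97.1%, 99.3% and 99.6% had neither set. The early set only was held by 145, 49 and 15 comparison cells, more in number than the cycling cells with that set only. The selection thus leaves out many cells with early DNA synthesis RNA. Cells were not thinned for these limits, so depth enters them. The mitosis list made up a median of 64.4 UMIs per 10000 in wild-type cycling cells against 4.78 in comparison cells, 75.8 against 4.05 in *Mgp*-KO and 115 against 3.84 in *Pd*-KO. It exceeded the 99th percentile of the comparison cells in 179 of 182, 67 of 68 and 20 of 20 cells, and the replication list did so in 154, 57 and 19.

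**Figure D2:**
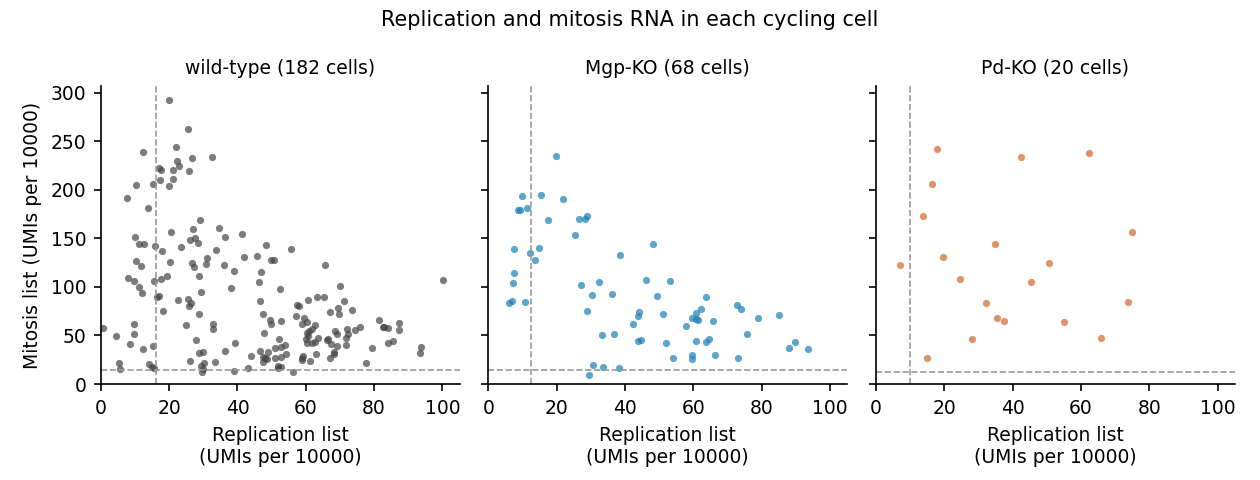
UMIs per 10000 of the replication list against the mitosis list in each cycling cell, a panel per library, with lines at the 99th percentile of the comparison cells of the same library. The mitosis content is above its line in 179 of 182, 67 of 68 and 20 of 20 cells and the replication content in 154, 57 and 19.

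Regulators that act before DNA synthesis differed in direction. Of 13 tested cyclin D, pocket protein and inhibitor genes, 6 were higher and 3 lower in every library, beside 38.9% and 22.3% of all tested genes, and 3 were at least 2-fold higher, beside 7.03%. These were *Cdkn2c* and *Cdkn2d*, which inhibit *Cdk4* and Cdk6, with log2 ratios of 2.68, 3.12 and 3.72 and of 2.72, 2.84 and 3.35, and *Rbl1* (p107), a pocket protein, with 3.16, 3.38 and 3.84. The list's median log2 ratio was 0.16, -0.01 and 0.36. Cyclin D2 (*Ccnd2*), which drives entry into the cycle, was at 244, 130 and 124 CPM against 225, 114 and 102. Cyclin D1 (*Ccnd1*) was at 24.1 and 10.2 CPM in wild-type and *Mgp*-KO cycling cells against 26.1 and 13.1, and had no UMI in the *Pd*-KO cycling cells, which allows up to 11.7 CPM, against 14.1. The inhibitor *Cdkn1c* (p57) was at 166, 127 and 127 CPM against 197, 318 and 199. These genes stayed close to the comparison cells in most libraries while the inhibitors of *Cdk4* and the pocket protein *Rbl1* stood above them.

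Genes tied to rest stood lower and those of growth higher, in most cases by less than 2-fold. Of 10 quiescence genes none passed 2-fold in every library, but 8 were lower in all 3 (22.3% of all tested genes), with median log2 ratios of -0.54, -0.79 and -0.54. *Klf4*, a factor that restrains proliferation, was at 307, 314 and 242 CPM in cycling cells against 556, 621 and 420. *Txnip*, an inhibitor of thioredoxin and of glucose uptake, was at 402, 218 and 229 CPM against 651, 551 and 418. Of 13 tested growth and ribosome biogenesis genes, 3 were at least 2-fold higher in every library (7.03% of all tested genes) and 12 were higher in all of them (38.9% of all tested genes), with medians of 0.79, 0.70 and 0.98. These 3 were *Ran*, a small GTPase of nuclear transport and spindle assembly, at 917, 808 and 608 CPM against 232, 166 and 124, its partner *Ranbp1* and the nucleolar protein gene *Nop56*. *Myc*, which drives growth, was the exception, at 30.4, 42.8 and 19.1 CPM against 42.1, 64.0 and 20.9.

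Of the genes that stood lowest in cycling cells, *Slfn5*, a schlafen family gene, was at 50.6, 29.6 and 79.6 CPM against 299, 304 and 344. *Igfbp3*, which binds insulin-like growth factors, was at 86.3, 30.6 and 51.0 CPM against 255, 462 and 191. *Eln* (elastin) was at 226, 229 and 863 CPM against 596, 693 and 1953, and *Ogn* (osteoglycin), a matrix proteoglycan, had log2 ratios of -1.41, -1.51 and -1.37. Each of these was lower in all 3 libraries. The rule also named *Apod*, *Inmt*, *Smpdl3a*, *Scara5*, *Kdm5b*, *Mustn1*, *Procr*, *Fmo2*, *Pi16*, *Pamr1* and *Adamtsl1*, with log2 ratios between -3.28 for *Fmo2* in wild-type and -1.08 for *Adamtsl1* in wild-type cells. *Kdm5b*, a histone demethylase, was at 19.6, 41.8 and 47.8 CPM against 68.6, 102 and 113. In the *Pd*-KO cells several of these rest on few molecules, with 7 UMIs of *Inmt*, 7 of *Smpdl3a* and 8 of *Fmo2*. Leaving out the wild-type or the *Pd*-KO library gave 146 and 121 such lower genes in place of 68.

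**Figure D3:**
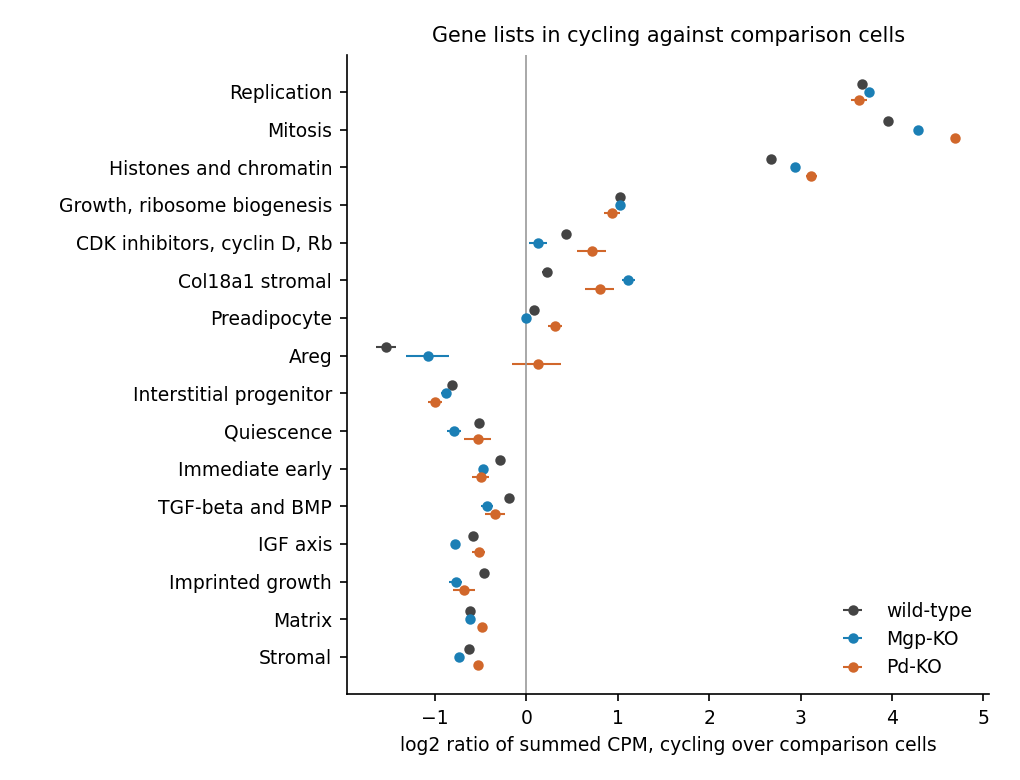
Log2 ratio of cycling over comparison cells for the summed UMIs of each gene list, coloured by library, with 95% intervals for counting error. The replication, mitosis and histone lists lie between 2.68 and 4.69, and the stromal, matrix and interstitial progenitor lists lie between -0.999 and -0.484.

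Matrix genes as a class were lower. The summed level of 26 matrix genes was 68977, 58487 and 96922 CPM in cycling cells against 106133, 89800 and 135526, log2 ratios of -0.62, -0.62 and -0.48, and 15 of 25 tested genes were lower in all 3 libraries, beside 22.3% of all tested genes. *Col3a1*, a fibrillar collagen, had log2 ratios of -0.62, -0.64 and -0.57, and *Dcn* had -0.65, -0.86 and -0.52. Of this list *Tnc* (tenascin C), a matrix protein of remodeling tissue, was the one at least 2-fold higher in every library, at 24.1, 96.8 and 35.0 CPM against 11.7, 18.1 and 4.03, with 73% of its *Pd*-KO UMIs in 1 cell, so 1 of 25 passed beside 7.03% of all tested genes. Of 24 tested TGFβ and BMP genes, *Id1*, a target of BMP signaling, was the one at least 2-fold higher in every library, at 137, 122 and 57.3 CPM against 51.8, 45.2 and 9.34, so 1 of 24 passed beside 7.03% of all tested genes, and the list's medians were -0.12, -0.34 and 0.09. Immediate early genes, which cell dissociation can raise, were lower in all 3 libraries for 11 of 12, beside the same 22.3%, with medians of -0.37, -0.57 and -0.75.

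RNA of interstitial progenitor markers was at lower levels in cycling cells than in comparison cells. Of 10 genes of this list 9 were lower in every library, beside 22.3% of all tested genes, and 2 were at least 2-fold lower, beside 0.776%, with medians of -0.78, -0.63 and -1.09. *Dpp4*, a surface peptidase, was at 56.7, 126 and 223 CPM in cycling cells against 114, 276 and 498. *Pi16*, a secreted protein of universal fibroblasts, was at 328, 416 and 656 CPM against 722, 1008 and 1584. *Wnt2* was the exception, at 114 against 82.5 CPM in *Mgp*-KO cells and lower in the others. In free RNA *Dpp4* was at 23.5, 171 and 335 CPM and *Pi16* at 198, 886 and 1252. For both genes cycling cells lay above free RNA in wild-type and below it in both knockouts. The part of free RNA in their values was not tested. After thinning to 4000 UMIs, a *Dpp4* UMI was found in 17.9% (12.6 to 24.3) of 179 wild-type cycling cells against 24.9%. It was found in 29.4% (18.98 to 41.7) of 68 against 48.7% in *Mgp*-KO and in 30.0% (11.9 to 54.3) of 20 against 61.8% in *Pd*-KO. A *Pi16* UMI was found in 40.8% against 45.3%, 36.8% against 54.2% and 45% against 65.8%, and one of *Cd55*, a complement regulator, in 30.7% against 34.6%, 35.3% against 41.3% and 20.0% against 53.1%. The interval of the cycling cells held the comparison share for *Pi16* in wild-type and *Pd*-KO and for *Cd55* in wild-type and *Mgp*-KO. Both classes were thus higher in *Dpp4* in the knockout libraries, and cycling cells lay below their comparison cells in each. *Ly6a* (Sca-1), a general progenitor marker, was found in 73.2%, 58.8% and 60% of thinned cycling cells against 86.2%, 86.8% and 93%.

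**Figure D4:**
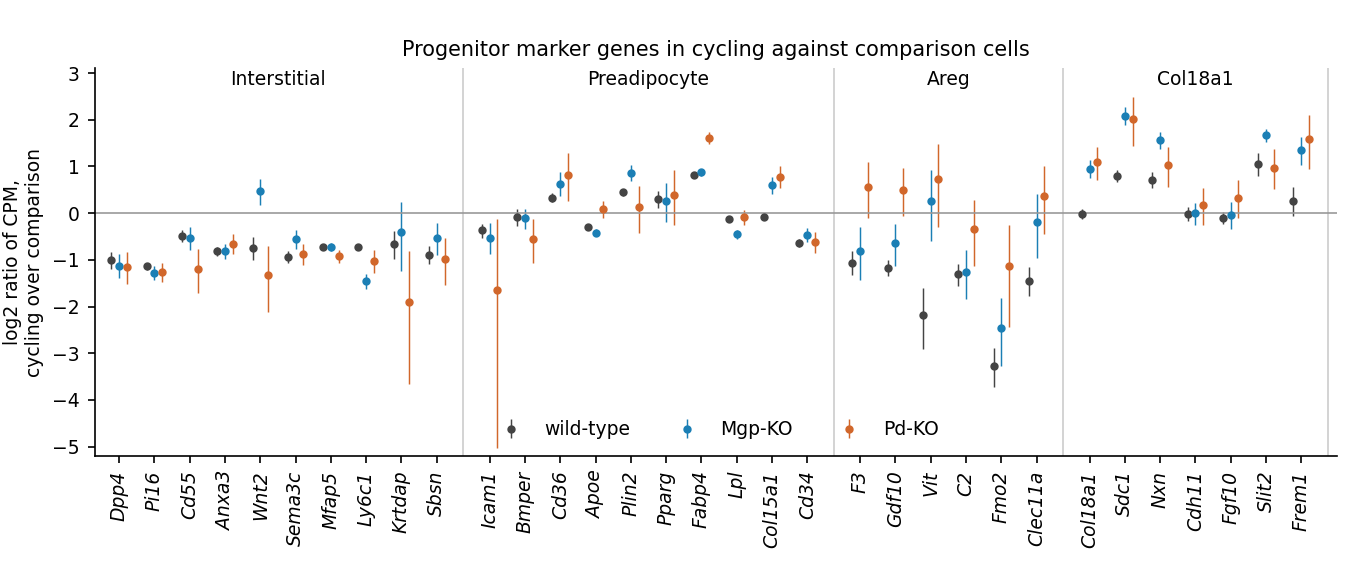
Log2 ratio of cycling over comparison cells for single progenitor marker genes, coloured by library, with 95% intervals for counting error. *Dpp4* and *Pi16* lie between -1.28 and -1.01 in all 3 libraries, and *Sdc1* and *Nxn* lie above 0.

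Preadipocyte genes were near the level of the comparison cells. None of 10 passed 2-fold in every library, 4 were higher and 4 lower in all 3, beside 38.9% and 22.3% of all tested genes, and the medians were -0.08, 0.08 and 0.11. *Fabp4*, a fatty acid binding protein, was at 5900.3, 1869.96 and 1593 CPM against 3363, 1020.4 and 525, with 36% of its *Pd*-KO UMIs in 1 cell. In free RNA *Fabp4* was at 2402, 3816 and 3458 CPM, above the cycling cells of both knockouts and below those of wild-type. *Icam1*, the surface marker of committed preadipocytes, was at 86.6, 81.5 and 6.37 CPM (2 UMIs) against 112, 118 and 25. *Pparg*, the master factor of adipogenesis, was at 60.5, 48.9 and 82.8 CPM against 49.2, 41.3 and 64.2. The summed log2 ratio of the list in wild-type was 0.08, and -0.01 when each cell was weighted equally.

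Markers of Aregs were lower in wild-type and *Mgp*-KO cycling cells, with medians of -1.38 and -0.73, and were at 0.44 in the 20 *Pd*-KO cells. *F3* (tissue factor) was at 30.8, 28.5 and 79.6 CPM against 64.3, 50.9 and 54.9, and *Gdf10*, a TGFβ family ligand, at 61.4, 45.9 and 105 CPM against 139, 72.7 and 75.6. Against comparison cells of matched depth the summed log2 ratio of the list was -0.32 in *Mgp*-KO in place of -1.07 and 0.74 in *Pd*-KO in place of 0.12. In *Pd*-KO 44% of *F3* and 42% of *Gdf10* UMIs came from 1 cell. *Fmo2* was the 1 gene of 6 in this list that was at least 2-fold lower in every library, beside 0.776% of all tested genes.

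*Col18a1*-type stromal markers stood higher in the cycling cells of both knockouts than in those of wild-type, each against its own comparison cells. Their medians were 0.26, 1.35 and 1.02. None of 7 tested genes was at least 2-fold higher in every library, beside 7.03% of all tested genes. In any size, 4 were higher in every library, beside 38.9% of all tested genes. *Sdc1* (syndecan 1), a heparan sulfate proteoglycan, was at 122, 237 and 105 CPM in cycling cells against 69.7, 55.9 and 26.5. *Nxn* (nucleoredoxin), a redox regulator of Wnt signaling, was at 70.6, 275 and 147 CPM against 43.1, 93 and 72.9. *Col18a1* was at 163, 227 and 217 CPM against 164, 117 and 103, so it stood above its comparison cells in both knockouts and not in wild-type. In thinned cells, *Sdc1* was found in 25.1% (18.97 to 32.2), 42.6% (30.7 to 55.2) and 20.0% (5.73 to 43.7) of cycling cells against 15.7%, 11.8% and 7.95%. In *Pd*-KO, *Nxn* was found in 35.0% (15.4 to 59.2) against 16.8% and *Col18a1* in 30.0% (11.9 to 54.3) against 23.3%. The *Pd*-KO interval of the cycling cells thus held the comparison share for each of these genes. In wild-type it did so for *Nxn* and *Col18a1*, and in *Mgp*-KO for none of them. Against comparison cells of matched depth, the summed log2 ratio of the list was 0.03 in wild-type in place of 0.22 and 0.60 in *Mgp*-KO in place of 1.11, and that of *Pd*-KO stayed within its interval.

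Counting the other way, by marker group, with the classes called again after thinning to 4000 UMIs, cycling cells were found in all groups. Cells with at least 2 UMIs over *Dpp4*, *Pi16* and *Cd55* were cycling in 1.20% of cases in wild-type (20 of 1670) against 1.18% outside the group, in 0.268% in *Mgp*-KO (9 of 3354) against 0.554%, and in 0.0361% in *Pd*-KO (1 of 2773) against 0.316% (5 of 1582). Their intervals overlapped in all 3 libraries. Cells with 2 UMIs over *F3*, *Gdf10* and *Vit* were cycling in 0.583% (5 of 857), 0.426% (3 of 705) and 0.298% (2 of 671), against 1.34%, 0.392% and 0.109% outside the group. For *Icam1* and *Bmper* these shares were 1.11% (8 of 722), 0.339% (6 of 1769) and 0.110% (1 of 911), against 1.21%, 0.419% and 0.145%. Cells with 2 UMIs over *Col18a1*, *Sdc1* and *Nxn* were cycling in 1.23% (12 of 979), 0.859% (10 of 1164) and 0.499% (4 of 802) of cases, against 1.18%, 0.286% and 0.0563% outside the group. At this limit the intervals inside and outside these 3 groups overlapped in every library too. With at least 3 UMIs the *Col18a1* group was cycling in 1.02% (6 of 589) in wild-type, 1.15% (9 of 785) in *Mgp*-KO and 0.832% (4 of 481) in *Pd*-KO, against 1.22%, 0.284% and 0.0516% outside it, and the intervals lay apart in both knockouts (0.526 to 2.17 against 0.159 to 0.469, and 0.227 to 2.12 against 0.00625 to 0.186). They overlapped at this limit in wild-type and for the other 3 groups. Of the cycling cells called after thinning, 20 of 52 in wild-type (38.5%), 9 of 24 in *Mgp*-KO (37.5%) and 1 of 6 in *Pd*-KO lay in the interstitial group, against 38.4%, 55.5% and 64.0% of comparison cells. These limits are not specific to progenitors, since 18.0%, 7.81% and 5.26% of *Pdgfra*-negative endothelial cells met the interstitial limit and 18.9%, 23.4% and 28.8% the *Col18a1* limit, and the parts of free RNA and of the endothelial cells' own RNA were not tested.

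Other cell types were looked for in the same cells. *Adipoq* (adiponectin), a hormone of adipocytes, was at 104 CPM in wild-type cycling cells against 12, had no UMI in *Mgp*-KO cycling cells and was at 35.0 CPM in *Pd*-KO, all from 1 cell. After thinning, 6.15% (3.11 to 10.7) of wild-type cycling cells held an *Adipoq* UMI against 1.32%. The early adipocyte list stood at 1625, 77.4 and 631 CPM against 376, 78.3 and 73.0, with *Car3* (carbonic anhydrase 3) its most abundant gene. In wild-type 41 of 182 cells held at least 10 UMIs of the list, the median cell held 1, and 6 cells held 57.7% of its UMIs, while 1 cell held 93.4% of its *Pd*-KO UMIs. Erythroid genes were at 1287, 3.06 and 3886 CPM against 91.8, 57.9 and 46.8, and 4 wild-type and 2 *Pd*-KO cycling cells with at least 10 such UMIs held nearly all of them. These genes made up as much as 39.6% of all UMIs of a cycling cell in wild-type and 3.64% in *Pd*-KO. Whether such cells are progenitors was not tested. Smooth muscle and pericyte genes were at 308, 211 and 178 CPM against 597, 147 and 177, led by *Acta2* in wild-type and *Mgp*-KO. The endothelial list was at 26.1, 9.17 and 28.7 CPM, the epithelial list at 29.2, 12.2 and 0, the neural list at 21.4, 8.15 and 15.9 and the immune list at 3.37, 3.06 and 12.7 CPM. Of 7 endothelial markers 4 were at 0 in each knockout, of 8 immune markers 3, 6 and 7 were at 0, and of 8 epithelial markers 1, 3 and 8. At least 2 UMIs of markers of other lineages were held by 27.5%, 2.94% and 15% of cycling cells, against 23.6%, 2.29% and 7.71% of comparison cells. Without such cells, 627 genes were higher and 69 lower in every library, and the part of doublets in the remaining values was not tested.

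The deleted gene was checked before cycling cells were compared between genotypes. *Mgp* was at 86.6 CPM in wild-type cycling cells (385 UMIs, 22.6% of them in 1 cell), at 1.02 CPM in *Mgp*-KO (1 UMI) and had no UMI in *Pd*-KO cycling cells, which allows up to 11.7 CPM. In comparison cells it was at 532, 0.760 and 1.56 CPM, so wild-type cycling cells also held less *Mgp* than their comparison cells.

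Both knockouts were set against the same wild-type library. Of 4316 genes with at least 50 CPM in cycling cells of at least 1 library, 598 were at least 2-fold higher in both knockout libraries than in wild-type (13.9%) and 29 at least 2-fold lower (0.672%). Cell cycle lists were close between genotypes, with summed log2 ratios over wild-type of -0.01 in *Mgp*-KO and -0.28 in *Pd*-KO for replication and of 0.12 and 0.39 for mitosis. The summed preadipocyte list was at -1.41 and -1.68 in cycling and -1.33 and -1.91 in comparison cells, with 3 of 10 genes at least 2-fold lower in both knockouts and 1 higher, and medians of -0.58 and -1.15. *Icam1* and *Bmper*, a BMP-binding protein, together were at 0.88 and -0.12 in cycling and 0.87 and 0.29 in comparison cells. This sum joins genes that differed. *Icam1* made up 86.6 of its 147 CPM in wild-type cycling cells, while *Bmper* made up 188 of 269 in *Mgp*-KO and 127 of 134 in *Pd*-KO. *Icam1* was thus near its wild-type level in *Mgp*-KO and far below it in *Pd*-KO cycling cells. The most abundant genes of the list were lower in both knockouts. *Fabp4* had log2 ratios of -1.66 and -1.89 in cycling cells, *Apoe*, the apolipoprotein E of lipid transport particles, -1.78 and -2.89, and *Lpl*, lipoprotein lipase, -1.33 and -1.12. Interstitial progenitor genes were at 0.32 and 0.84 in cycling and at 0.39 and 1.03 in comparison cells. The summed *Col18a1*, *Sdc1* and *Nxn* level differed between the classes, at 1.06 (0.93 to 1.19) and 0.40 (0.14 to 0.64) in cycling cells against -0.06 (-0.08 to -0.03) and -0.45 (-0.49 to -0.42) in comparison cells.

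Most genes that were higher in the knockout libraries were so in both classes. Of the 598 genes, 530 (88.6%) were also at least 2-fold higher in both knockouts in comparison cells, which is 82.9% of the 639 such genes there, and the median log2 ratios of the 598 were 1.78 and 2.11 in cycling and 1.78 and 2.09 in comparison cells. Among them were *Magi2*, a scaffold protein gene that spans 1478 kb, at 5.62, 314 and 204 CPM in cycling cells, and *Prkg1*, a cGMP-dependent kinase gene that spans 1201 kb, at 4.95, 156 and 166 CPM. The rule also named *March3*, *Gm17268*, *2610307P16Rik*, *B3galt1*, *Naaladl2* and *Nup210l*. *Gm17268* had no wild-type UMI and 1 in *Pd*-KO, so its *Pd*-KO value rests on a single molecule.

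These genes were long. The genomic span, from the GENCODE M21 annotation of GRCm38, had a median of 201 kb in the genes that were higher in both knockouts, 4.49 kb in those that were lower and 28.1 kb in all tested genes. Of 4 equal groups of genes by span, in the shortest (up to 9.84 kb), 1 of 1079 was higher, or 0.0927%, and in the longest (from 80.2 kb) 535 of 1079, or 49.6%. From the shortest to the longest group the median log2 ratio went from -0.15 to 1.14 in *Mgp*-KO and from -0.29 to 1.40 in *Pd*-KO cycling cells, and from -0.23 to 1.12 and from -0.41 to 1.34 in comparison cells. Span, genotype and the Cell Ranger version of the headers moved together, and their parts cannot be told apart. The cycling over comparison difference showed no such order, since the genes higher in every library had a median span of 20.5 kb, the lower ones 23.9 kb and all tested genes 27.4 kb.

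**Figure D5:**
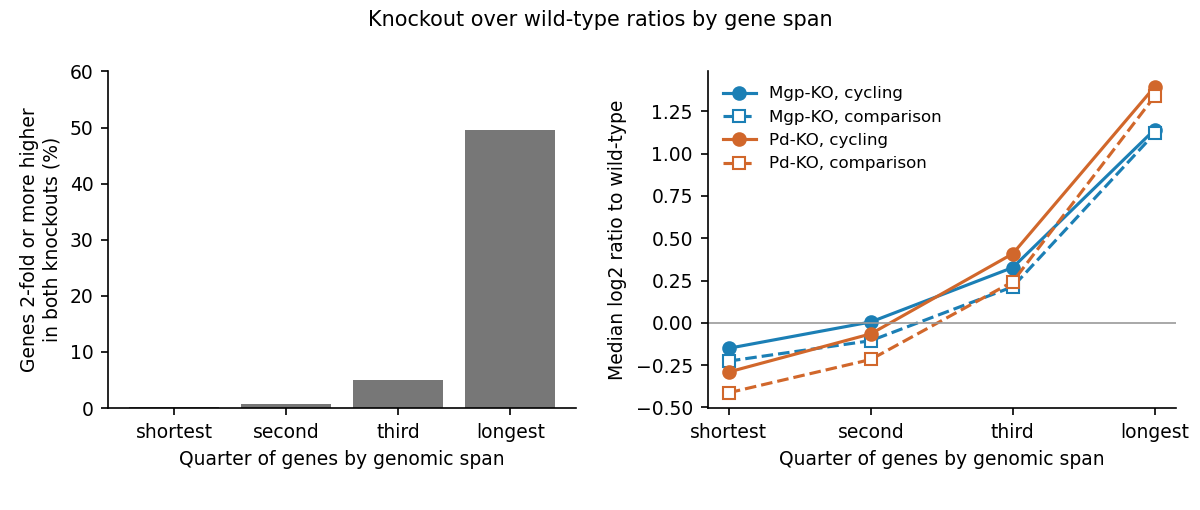
Log2 ratio of each knockout over wild-type by group of genomic span in cycling and comparison cells (medians over 1079 genes each), and the percentage of genes at least 2-fold higher in both knockouts in cycling cells. The medians are higher at longer span in both classes, and the percentage goes from 0.0927% to 49.6%.

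Genes lower in both knockouts were fewer. Beside *Mgp*, the rule named *Ccl21a*, *Glycam1*, *AY036118*, *Arxes1*, *Gm42418*, *Apoc1* and *Arxes2*. *Gm42418*, which overlaps ribosomal RNA, was at 16060.0 CPM in wild-type, 1357 in *Mgp*-KO and 2656 in *Pd*-KO cycling cells, and at 25426, 1518 and 4684 CPM in comparison cells. *Ccl21a*, a chemokine of lymphatic and lymph node stromal cells, had 313 wild-type UMIs, 87.5% of them in 1 cell, and none in either knockout, and has near-identical copies in the genome. *Glycam1*, made by vessels of lymph nodes and by mammary epithelium, had 261 wild-type UMIs in 76.4% of the cells and none in either knockout. Of the 29 lower genes, 21 (72.4%) were also lower in comparison cells, where 57 were lower in all.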

How the data were processed

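Single-cell RNA-seq libraries of the inguinal stromal vascular fraction, 1 per genotype, were used as the UMI count matrices the authors deposited, which list 32285 genes. The submitters' processing notes name Cell Ranger 6.1.1 and the build GRCm39, the study's methods name mm10, and the deposited headers name Cell Ranger 4 for wild-type and 7.1.0 for both knockouts. No column of another series was used.

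The cells and gene lists were chosen with earlier results of these data known. UMIs were summed per library and class and divided by the class total (CPM). Log2 ratios had 0.5 UMIs added, and "higher" or "lower" genes passed 2-fold in all libraries compared. With 1 library per genotype no p-value was computed. Intervals (95%, exact binomial, Poisson or conditional binomial) cover counting error only and treat UMIs as independent. Cells were thinned without replacement to 4000 UMIs to compare shares. Doublets were not called, and cells were kept. Median UMIs per cell ranged from 6734 to 23477 over the classes, so a gene under about 10 CPM rests on few UMIs in the *Pd*-KO cycling cells, which held 313955.

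The text names the 15 genes furthest above and the 15 furthest below by the weakest ratio of the 3 libraries among genes with at least 50 CPM in the higher class, the 8 highest and 8 lowest genes in both knockouts, without *Xist*, Tsix and Y-linked genes, the genes of the lists, and *Mgp*. Alternatives covered thinning, gene filters, scaling, depth matching, per-cell means and left-out libraries. Promoters were matched by Entrez ID or symbol and kept where their place lay within 5000 bases of the GENCODE M21 gene on its strand. The gene comparison was also run on simulated Poisson sums. These held no variation between cells, so the run does not bear on calls that rest on few cells. Python 3.11.15, numpy 2.4.6, scipy 1.17.1, pandas 2.3.3 and matplotlib 3.10.9 were used.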

Additional observations from a re-analysis of the deposited data

Results flagged for a closer look

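In 3 marker lists the 95% interval of the log2 ratio of cycling over comparison cells lay above 0 in one library and below 0 in another. Other lists with opposite signs had an interval that held 0 on one side. These differences between libraries were not tested, since each genotype has 1 library. The smooth muscle and pericyte list was at 0.52 in *Mgp*-KO and at -0.96 in wild-type cells, and 48.1% of the *Mgp*-KO UMIs of its leading gene *Acta2* lay in 1 cell. The erythroid list was at 3.81 in wild-type and 6.38 in *Pd*-KO cells and at -4.02 in *Mgp*-KO cells, where it had 3 UMIs, and the highest cell held 39.2% of its wild-type and 81.7% of its *Pd*-KO UMIs. The summed level of *F3*, *Gdf10* and *Vit* was at 0.54 in *Pd*-KO cells, at -1.21 in wild-type and at -0.59 in *Mgp*-KO cells, with 30.0% of the *Pd*-KO UMIs in 1 cell.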

How the results depend on the processing

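No paired analysis was possible because each genotype has 1 library. The order of the cycling shares, wild-type above *Mgp*-KO above *Pd*-KO, held under 13 of 14 alternatives run on cell limits, depth and sex, with wild-type 2.31 to 3.70 times *Mgp*-KO and 4.65 to 17.2 times *Pd*-KO. It turned between the knockouts with any UMI of *Top2a* or *Mki67* (9.51%, 2.36% and 2.69%), where wild-type was 4.02 times *Mgp*-KO and 3.53 times *Pd*-KO, and it did not hold within ranges of UMIs per cell, where *Mgp*-KO was above wild-type at 8000 to 16000 UMIs (1.38% against 0.783%) and at 16000 to 32000 (10.2% against 4.46%). The shares themselves moved with at least 1 UMI of each gene in *Pd*-KO (0.549%), with at least 2 *Mki67* UMIs in wild-type (2.35%), in male *Mgp*-KO cells (1.10%), in female and male *Pd*-KO cells (0.665% and 0.155%), with thinning to 4000 UMIs (1.19%, 0.396% and 0.138%) and to 2000 UMIs (0.562%, 0.243% and 0.0921%). Genes at least 2-fold higher and lower in every library numbered 209 and 25 with a mean of at least 50 CPM and 8177 and 114 with no filter. They numbered 554 and 45 against comparison cells of matched depth, and 536 and 93 with median-ratio scaling. With no filter, the 0.5 UMIs added weigh more in the smaller cycling class (313955 UMIs against 56293347 in *Pd*-KO). A gene with few or no UMIs can then pass as higher, which bears on the 8177 and on their share below. The UMIs behind these genes were not counted. Leaving out 1 library gave 670 to 773 higher genes and 83 to 146 lower genes. The share of higher among called genes was 90.1%, 85.2% with median-ratio scaling and 98.6% with no filter. In both knockouts 48 genes were lower and 492 higher with median-ratio scaling, and 18 and 281 with at least 100 CPM.

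For the marker lists the log2 ratios follow for wild-type, *Mgp*-KO and *Pd*-KO in that order, unless fewer are named. Interstitial genes were at -0.69 and -0.75 (wild-type and *Mgp*-KO) with matched depth, -0.88, -1.02 and -1.17 with median-ratio scaling, -0.64, -0.80 and -1.18 with per-cell means, and -1.18 in *Pd*-KO without erythroid cells. Preadipocyte genes were at 0.0143, 0.0823 and 0.56 with matched depth, 0.0095, -0.13 and 0.14 with median-ratio scaling, -0.0122, 0.0432 and 0.20 with per-cell means, 0.055 and -0.0889 (wild-type and *Mgp*-KO) without cells of other lineages, and 0.10 and 0.49 (wild-type and *Pd*-KO) without erythroid cells. Areg genes were at -1.11, -0.32 and 0.74 with matched depth. *Col18a1*-type genes were at 0.0276 and 0.60 (wild-type and *Mgp*-KO) with matched depth, 0.15, 0.98 and 0.63 with median-ratio scaling, 0.30 (wild-type) with per-cell means, 0.29 (wild-type) without cells of other lineages, and 1.01 in *Pd*-KO without erythroid cells. Thinned to 2000 UMIs, the cycling share was 0.561% of the wild-type interstitial group, 0.276% of the wild-type *Col18a1* group and 0 in the *Pd*-KO interstitial and preadipocyte and the *Mgp*-KO Areg groups, and it was 0 in the *Pd*-KO preadipocyte group with 3 UMIs required. The looser limits on *Top2a* and *Mki67*, and leaving out erythroid cells, and cells of other lineages in the knockout counts, were chosen after seeing the data. The causes were not tested, and the 20 *Pd*-KO cells limit every value that rests on them.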

Other observations

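Other groups of genes were set beside the same cells. Imprinted growth genes, many of which are shut down as tissues mature, stood at 1743, 1564 and 1857 CPM in wild-type, *Mgp*-KO and *Pd*-KO cycling cells against 2399, 2679 and 2984, with 8 of 11 tested genes lower in all 3 libraries, beside 22.3% of all tested genes, and none of them by 2-fold. The list of insulin-like growth factors and their binding proteins stood at 4259, 3369 and 4991 CPM against 6386, 5787 and 7171, with Igfbp6 its most abundant gene and *Igfbp3* the 1 gene of 9 tested at least 2-fold lower in every library, beside 0.776% of all tested genes. The log2 ratios of these lists lay between -0.78 and -0.46, and those of the matrix list between -0.62 and -0.48.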
